A study of Mus musculus with 6 samples.

Results

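The cytochrome P450 family was examined in mouse mammary ER-negative luminal cells with and without Sox9. Its members were the genes whose annotated symbol is Cyp followed by a number, letters and a number, and 1 gene of that pattern was left out by the rule. This gave 89 genes, each with 1 probe set, of 19505 named genes and 22206 tested probe sets on the arrays. The family was chosen by a measured value, the higher signal of Cyp2f2 in Sox9 KO cells. The Cyp2f2 difference is therefore given as a description, with its error and no p-value. Counts of members that pass a p-value are given for the other 88 in the main comparison, and for all 89 where the processing was varied. The other 88 entered by their symbol alone.

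Cytochromes P450 are haem-containing monooxygenases that split molecular oxygen, place one oxygen atom into a substrate and release the other as water. Microsomal members sit in the endoplasmic reticulum and take electrons from P450 reductase and cytochrome b5, and mitochondrial members take them from ferredoxin. The CYP1, CYP2 and CYP3 families are best known for oxidizing drugs, pollutants and eicosanoids, the CYP4 family for fatty acids, and the higher-numbered families for sterols, bile acids, steroid hormones, vitamin D and retinoic acid. Many mouse members are liver enzymes. Cyp2f2 is known from the club cells of the mouse airway, where it turns naphthalene into a toxic epoxide. In breast tissue the family is best known through CYP1B1, which hydroxylates estradiol and polycyclic hydrocarbons.

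RNA came from 3 WT animals, Sox9Fl/Fl without Cre, and 3 Sox9 KO animals, MMTV-iCre; Sox9Fl/Fl, which the study calls Sox9-cKO. All carried floxed Sox9 on both alleles on a mixed C57BL/6J and FVB/NJ background and were young adult females in diestrus, and each animal gave its own cell suspension and 1 array. The sort kept cells without lineage markers or Sca1 that were high in EpCAM and low in CD49f. For Sox9 KO a further gate took cells positive for ECFP, the Cre reporter. Cre is driven by the MMTV promoter, which is active in only part of the mammary epithelium. Because the WT cells had neither Cre nor the ECFP gate, loss of Sox9, Cre and the gate cannot be told apart.

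Values are log2 signals, so a difference of 1 is a 2-fold difference in signal. All differences are Sox9 KO minus WT with their standard error (SE) from limma. Sox9 itself had log2 signals of 11.60, 11.54 and 11.47 in WT and 6.73, 7.84 and 7.51 in Sox9 KO, a fall of 4.18 (SE 0.27, adjusted p = 0.00867 in limma). Sox9 KO replicate 1 stood apart from the other arrays, with a score of 57.4 on the first principal component against -27.1 to 15.1. The 10 markers of ER-negative luminal cells and the 8 general luminal markers were all above the negative controls in at least 1 genotype. Their signals were mostly lower in Sox9 KO, in 7 of 10 ER-negative luminal markers and in 6 of 8 luminal markers. The median differences were -0.34 and -0.23. Of these markers 5 and 2 were lower with an unadjusted p under 0.05 in limma, beside 4.99% of all tested probe sets. The largest falls were in Ltf at -1.61 (SE 0.58), with Sox9 KO signals of 8.12, 9.91 and 10.49, and in Cldn4 at -0.91 (SE 0.21). Kit, Elf5, Sox10 and Wfdc18 differed by 0.21, 0.01, 0.00 and -0.05, and the luminal markers Krt19 and Cldn3 by 0.12 and 0.25. None of the markers passed the adjusted threshold in limma, and the part of this shift in the P450 differences was not tested. The 7 measured ER-positive luminal markers had a log2 summed signal of 11.36 in WT replicate 3 and of 8.98 to 9.35 on the other arrays, and none was above the negative controls on all arrays of a genotype. Of 9 basal markers, Krt14 and Trp63 were above the negative controls in Sox9 KO and Krt5 and Acta2 on no full set of arrays. The log2 summed basal signal was 9.67 to 10.58 in WT and 11.49 to 11.69 in Sox9 KO, with no overlap. Such a sum weighs bright genes most, and Krt14 was the brightest of the 9 in Sox9 KO, at 11.08, 10.85 and 10.63. Of the 9 markers 6 were higher and 3 lower, with a median difference of 0.10. None of the measured fibroblast, adipocyte, myeloid, T and NK, B cell and endothelial markers was above the negative controls on all arrays of a genotype. Single arrays stood apart: the fibroblast gene Dcn was at 9.60 on WT replicate 1 and 10.56 on Sox9 KO replicate 3, against 6.76 to 7.73 on the others, and the adipocyte gene Fabp4 at 10.91 and 10.11, against 7.21 to 9.20. The log2 summed fibroblast signal was 11.09 on Sox9 KO replicate 3 and 9.03 and 9.37 on the other Sox9 KO arrays. In sorted bulk RNA, fewer cells of a type and less RNA per cell cannot be told apart.

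Most of the family was at background in both genotypes. A signal was counted as above background where it was over the 95th percentile of the 5222 negative control probe sets of the same array, which was 7.75 to 8.58 on the 6 arrays. By this measure 82 of 89 members (92.1%) were above background on no array, and 35 were below even the median of the negative controls on all 6 arrays. On all 3 WT arrays 2 members (2.25%), Cyp2d13 and Cyp2d22, were above background, beside 19.8% of all tested probe sets. On all 3 Sox9 KO arrays 3 members (3.37%), Cyp2d13, Cyp39a1 and Cyp2f2, were above background, beside 23.5% of all tested probe sets. Another 3 members were above background on at least 1 array, and these were Cyp1b1, Cyp24a1 and Cyp2d9. Just outside the limit was Cyp20a1, an orphan P450 with no known substrate, above 91.4% to 94.7% of the negative controls. On such arrays low signals are compressed towards background, so differences of dim members are likely too small.

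Cyp2f2 had log2 signals of 7.31, 7.46 and 7.36 in WT and 8.58, 8.94 and 8.74 in Sox9 KO. The WT arrays lay close together, all 3 Sox9 KO arrays were higher, and the groups were separated by more than the spread within either. The means of 7.38 ± 0.08 and 8.75 ± 0.18 (SD, n = 3 each) differed by 1.38 (SE 0.14, 95% interval 1.04 to 1.71). In WT the signal was higher than that of 85.4%, 88.3% and 92.1% of the negative controls, under the background limit on every array. In Sox9 KO it was higher than 97.2%, 97.8% and 98.0% of them, above the limit on every array. Set against that limit in WT, the signal was at least 1.39-fold higher in Sox9 KO, which takes the mean of the WT arrays at the lowest level that counts as above background. With each array left out in turn the difference was 1.28 to 1.46. The basal markers Krt14 and Trp63 were higher on the same 3 arrays, by 2.57 (SE 0.39) and 1.99 (SE 0.38), neither past the adjusted threshold. Of the other 7 basal markers, Oxtr differed by 0.54 and Krt5 by 0.27, and Acta2, Cnn1, Myh11, Mylk and Tagln lay between -0.20 and 0.10, so that the median of the 9 was 0.10. The part of these markers in the Cyp2f2 difference was not tested.

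**Figure D1:**
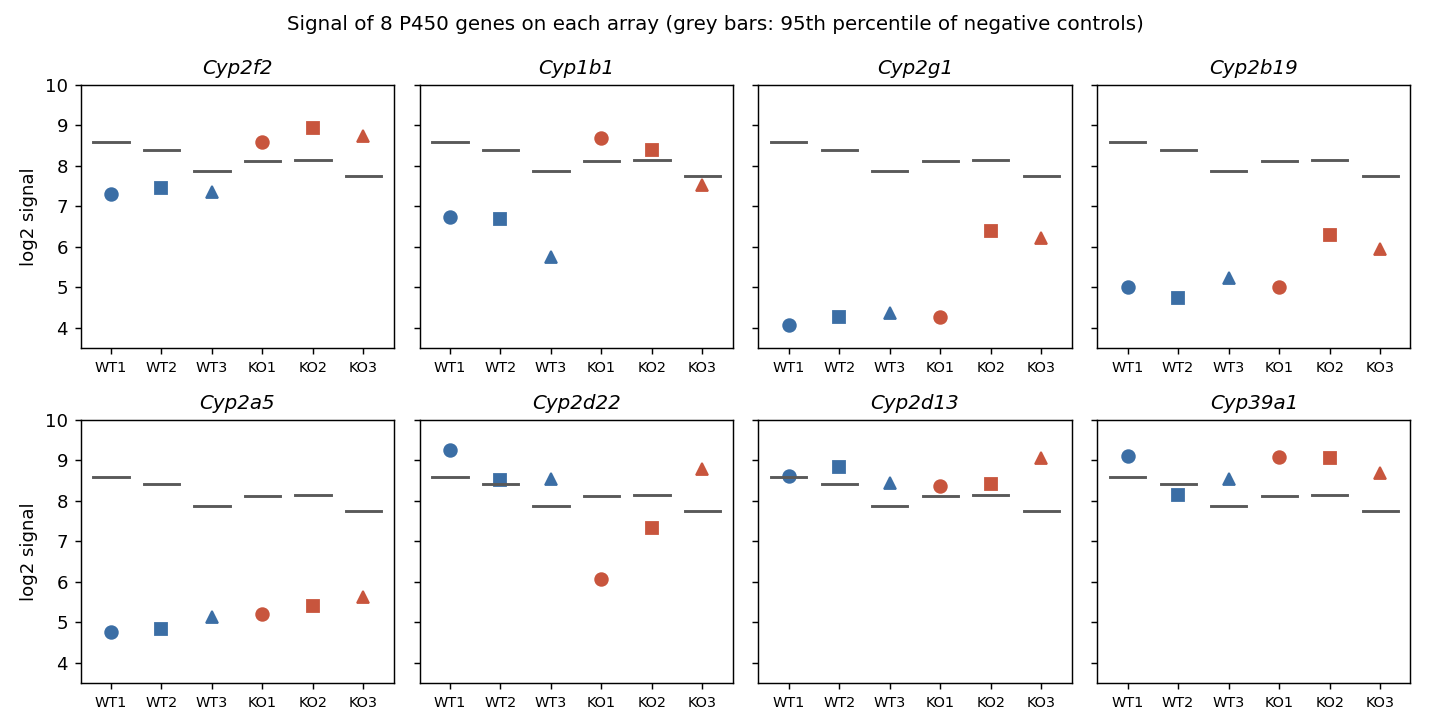
Log2 signal (y axis) of 8 P450 genes on each array (x axis, 3 WT in blue and 3 Sox9 KO in red; the marker shape gives the replicate number), with grey bars at the 95th percentile of the negative controls of that array. Cyp2f2 lies under the bar on all 3 WT arrays and above it on all 3 Sox9 KO arrays, while Cyp2g1, Cyp2b19 and Cyp2a5 lie under it on all 6 arrays.

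Cyp1b1, on chromosome 17, had the largest difference of the 89 members. This enzyme of the CYP1 family is induced through the aryl hydrocarbon receptor and is the main member of its family outside the liver. Its log2 signals were 6.73, 6.69 and 5.74 in WT and 8.70, 8.40 and 7.54 in Sox9 KO. All 3 Sox9 KO arrays were higher than all 3 WT arrays, and the lowest array of each genotype was replicate 3. The means were 6.39 ± 0.56 and 8.21 ± 0.60 (SD, n = 3 each), a difference of 1.83 (SE 0.36, 95% interval 0.99 to 2.67). Its unadjusted p was 0.0011, but the adjusted p of 0.205 in limma did not pass 0.05. With quantile normalization, median centring, the replicate block or single arrays left out, the adjusted p in limma was 0.0895 to 0.654. The signal was above background on 2 of 3 Sox9 KO arrays and on no WT array, and set against the background limit in WT no fold could be given. Without any single array the difference was 1.5 to 2.16.

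Neither Cyp1b1 nor 6 further genes of the aryl hydrocarbon receptor pathway, which are known targets or parts of the receptor complex, passed the adjusted threshold. Cyp1a1, its classical target, had signals of 3.76, 3.61 and 3.39 in WT and 3.58, 3.96 and 3.91 in Sox9 KO, a difference of 0.23 (SE 0.17), above 19.6% to 37.4% of the negative controls. Cyp1a2, the liver member of the family, differed by 0.02 (SE 0.19). Cyp2s1, an epithelial P450 that dioxin induces, differed by 0.34 (SE 0.21, adjusted p = 0.665 in limma). The receptor Ahr had signals of 8.42, 7.99 and 7.75 in WT and 8.45, 8.83 and 8.02 in Sox9 KO, which overlap. Ahr was above background on all 3 Sox9 KO arrays and on no WT array, but the background limit differs by array. It was 8.58, 8.40 and 7.87 in WT and 8.11, 8.15 and 7.75 in Sox9 KO. So a signal of 8.42 on WT replicate 1 counted as below it and one of 8.02 on Sox9 KO replicate 3 as above. The difference of Ahr was 0.38 (SE 0.25, adjusted p = 0.69 in limma). Its partner Arnt was above background on all 6 arrays and differed by -0.11 (SE 0.20), and the repressor Ahrr differed by 0.09 (SE 0.16).

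The upstream sequence of Cyp1b1 is shown because it is the member with the largest difference and an aryl hydrocarbon receptor target. Those of Cyp2f2, Cyp2a5 and Cyp2b19 are shown because these 3 genes of one stretch of chromosome 7 had a higher mean signal in Sox9 KO. They were picked by these values. Cyp2a5 and Cyp2b19 were above background on no array and did not pass the adjusted threshold. Cyp2g1, in the same stretch, also had a higher mean signal, but no upstream sequence was available here. Each run is the 250 bases before the start site, 5′ to 3′ on the gene's strand, from RefSeq on GRCm38.p6. Capitals mark the SOX core letters AACAAT and ACAAAG and the aryl hydrocarbon receptor core GCGTG, each searched on both strands, with no overlap between the matches shown.
Cyp1b1 (chr17:79715062-79715311, minus strand): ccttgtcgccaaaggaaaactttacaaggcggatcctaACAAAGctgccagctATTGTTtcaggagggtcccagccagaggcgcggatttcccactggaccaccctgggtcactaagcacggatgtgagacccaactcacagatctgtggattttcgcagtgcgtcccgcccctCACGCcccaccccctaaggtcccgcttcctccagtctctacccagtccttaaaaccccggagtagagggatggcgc
Cyp2f2 (chr7:27119705-27119954, plus strand): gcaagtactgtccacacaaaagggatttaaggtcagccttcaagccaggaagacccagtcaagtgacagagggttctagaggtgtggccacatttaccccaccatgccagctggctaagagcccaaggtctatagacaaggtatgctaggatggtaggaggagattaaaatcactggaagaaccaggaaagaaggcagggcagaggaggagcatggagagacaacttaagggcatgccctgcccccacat
Cyp2a5 (chr7:26835089-26835338, plus strand): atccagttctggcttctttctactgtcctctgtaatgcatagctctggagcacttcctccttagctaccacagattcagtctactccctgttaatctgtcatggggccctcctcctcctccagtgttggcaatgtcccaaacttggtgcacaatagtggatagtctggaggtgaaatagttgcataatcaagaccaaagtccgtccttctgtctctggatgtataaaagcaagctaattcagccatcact
Cyp2b19 (chr7:26756892-26757141, plus strand): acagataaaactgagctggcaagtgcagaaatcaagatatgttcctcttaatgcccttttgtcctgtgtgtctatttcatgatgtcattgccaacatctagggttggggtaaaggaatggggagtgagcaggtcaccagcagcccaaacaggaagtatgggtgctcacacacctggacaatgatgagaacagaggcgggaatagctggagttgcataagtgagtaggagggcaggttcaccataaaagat

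In the Cyp1b1 run, ACAAAG starts at position -212 from the start site and AACAAT, read on the other strand, at -197. The aryl hydrocarbon receptor core, also on the other strand, starts at -76. The runs of Cyp2f2, Cyp2a5 and Cyp2b19 hold none of these letters. Of the 32851 upstream runs in the table, 9.42% hold AACAAT, 16.5% hold ACAAAG, 24.0% hold either and 28.2% hold GCGTG. Of the 76 runs found for 68 members, 26 (34.2%) hold a SOX core, and many of these belong to close paralogs with similar upstream sequence. A match describes the letters and is not a binding site.

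With Cyp2f2 set aside, 2 of 88 members (2.27%), Cyp1b1 and Cyp2g1, were over 2-fold higher with an unadjusted p under 0.05, beside 0.599% of all tested probe sets, and 0 were lower, beside 0.536%. Nothing is read from this or the next shares, since the family was chosen on this contrast. At an adjusted p under 0.05 in limma 0 members were called, beside 0.00901% of all tested probe sets. At an unadjusted p under 0.05, 6 of 88 members were higher (6.82%), beside 4.28%, and 0 were lower, beside 4.99%. The 3 WT and 3 Sox9 KO signals did not overlap for 5 of 88 members that were higher (5.68%), beside 6.85%, and for 3 that were lower (3.41%), beside 7.3%.

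Over the whole family the differences were small. Of 89 members 41 were higher and 47 lower in Sox9 KO, and Cyp2c39 had no difference. The median difference was -0.007, beside 0.007 over all tested probe sets. In 71 members (79.8%) the difference lay within 0.25 of 0 on the log2 scale, and in 81 (91.0%) within 0.5. The median SD within genotypes was 0.20. The members that varied most within a genotype were Cyp3a57 (SD 1.21), Cyp2d22 (1.01), Cyp2g1 (0.84), Cyp24a1 (0.72) and Cyp1b1 (0.58).

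**Figure D2:**
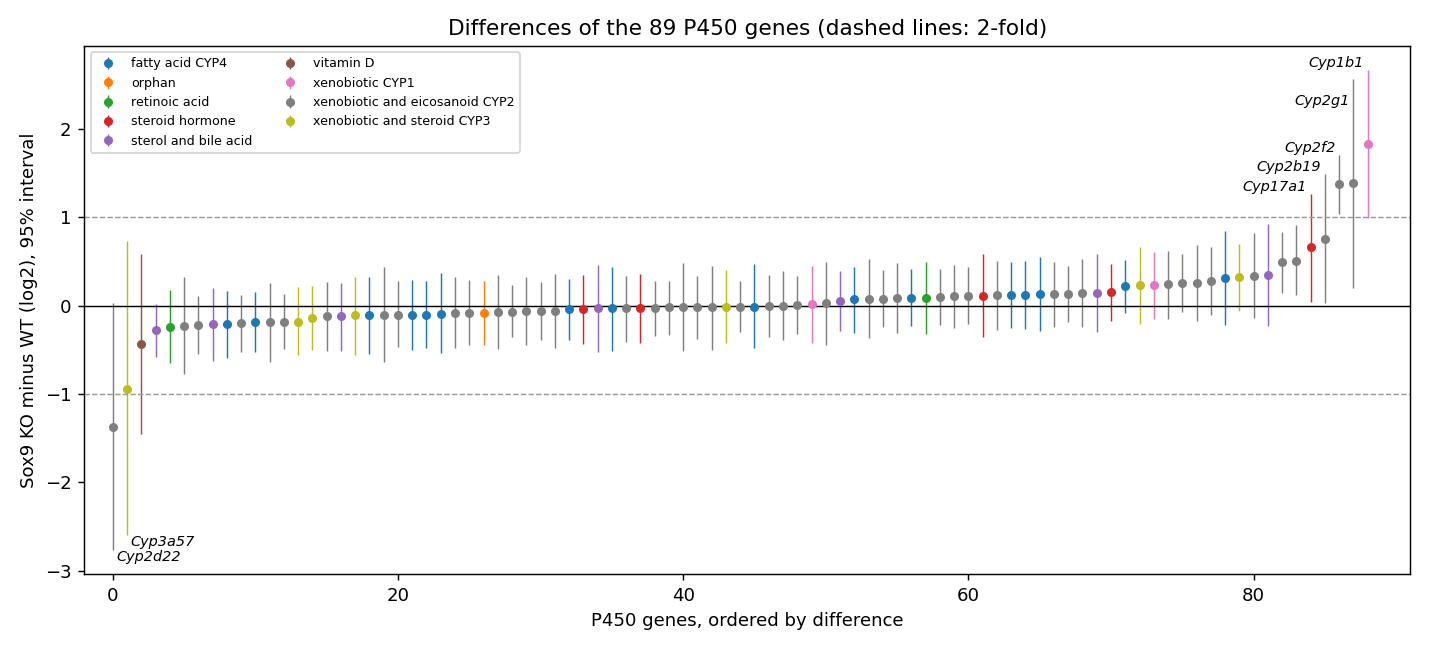
Differences of the 89 P450 genes, Sox9 KO minus WT on the log2 scale (y axis), ordered by size (x axis), with 95% intervals as lines, colours for the enzyme class and dashed lines at 2-fold. Most points lie within 0.25 of 0, and Cyp1b1, Cyp2g1 and Cyp2f2 lie above the upper dashed line and Cyp2d22 below the lower one.

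Cyp2g1, a P450 of the olfactory mucosa, had log2 signals of 4.07, 4.28 and 4.36 in WT and 4.26, 6.39 and 6.22 in Sox9 KO. Sox9 KO replicates 2 and 3 were higher than every WT array, and Sox9 KO replicate 1 lay within the WT range. The means were 4.24 ± 0.15 and 5.62 ± 1.18 (SD, n = 3 each), a difference of 1.39 (SE 0.51, 95% interval 0.20 to 2.57, adjusted p = 0.465 in limma). Without Sox9 KO replicate 1 the difference was 2.07 and Cyp2g1 passed the threshold (adjusted p = 0.0139 in limma). It was 1 of 11 probe sets called in that comparison. Over quantile normalization, median centring, the replicate block and single arrays left out, the adjusted p in limma was 0.0139 to 0.889. The signal was under the background limit on all 6 arrays, above 79.4% and 82.5% of the negative controls on the 2 higher ones, so no fold is given.

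The neighbours of Cyp2g1 on chromosome 7 were also among the higher members. Cyp2b19, an arachidonic acid epoxygenase known from mouse keratinocytes, had signals of 5.02, 4.73 and 5.23 in WT and 5.02, 6.30 and 5.94 in Sox9 KO. As with Cyp2g1, Sox9 KO replicates 2 and 3 were higher and replicate 1 lay within the WT range, and the difference was 0.76 (SE 0.32, adjusted p = 0.524 in limma). Leaving out Sox9 KO replicate 1 brought it to 1.13, and leaving out replicate 2 of that genotype to 0.49. Cyp2a5, the mouse coumarin hydroxylase, had signals of 4.75, 4.82 and 5.12 in WT and 5.19, 5.41 and 5.63 in Sox9 KO. These did not overlap, and the difference was 0.51 (SE 0.17, adjusted p = 0.416 in limma).

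In chromosome order Cyp2b19, Cyp2g1 and Cyp2a5 follow one another, and Cyp2a22, Cyp2a12, Cyp2f2 and Cyp2t4 come next. Of the 6 members other than Cyp2f2 with an unadjusted p under 0.05, 3 lie in this stretch, which was noticed after their values had been seen. The other genes of the stretch differed by less. Cyp2a22 and Cyp2a12, which lie between Cyp2a5 and Cyp2f2, differed by -0.08 (SE 0.17) and -0.07 (SE 0.18). Cyp2t4 and Egln2, the next genes after Cyp2f2, differed by -0.03 (SE 0.14) and 0.04 (SE 0.18). On the other side Cyp2b23 differed by 0.28 (SE 0.17), and Cyp2a4, whose product closely resembles that of Cyp2a5, by 0.12 (SE 0.17). Cyp2b10, Cyp2b13 and Cyp2b9 differed by 0.11, -0.06 and -0.18. Which probes these near-identical genes share is not known here.

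**Figure D3:**
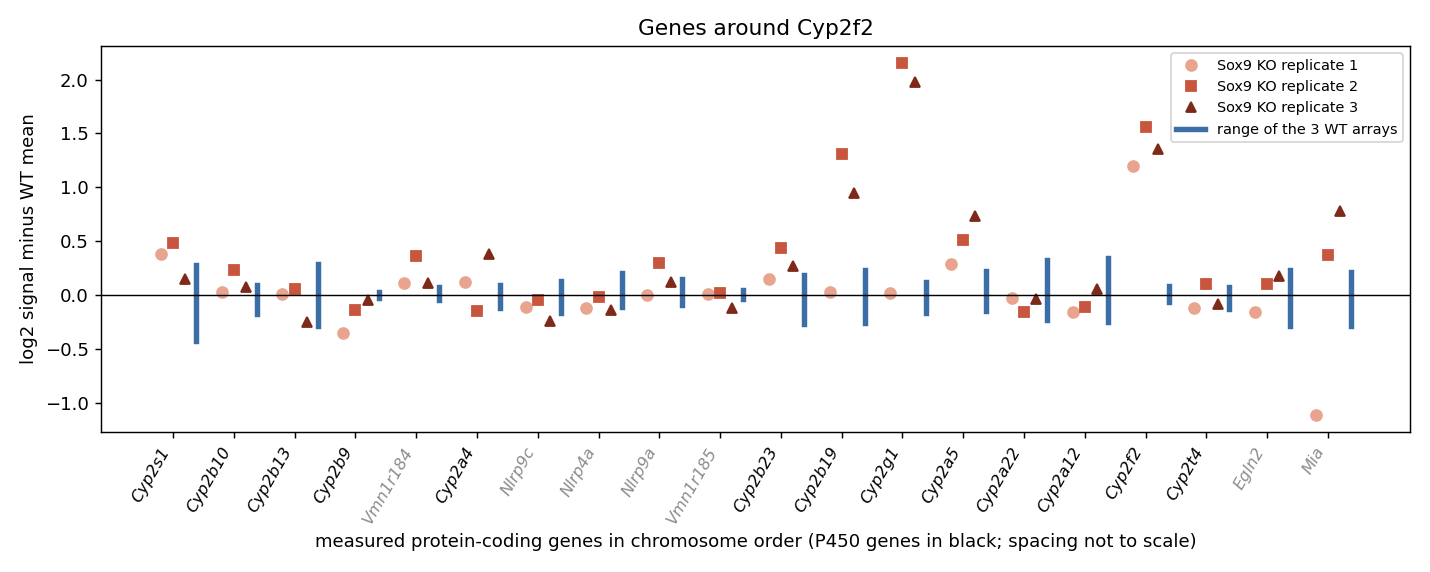
Log2 signal of each Sox9 KO array minus the WT mean (y axis; points, shaded by replicate) for measured genes in chromosome order around Cyp2f2 (x axis, not to scale), with blue bars for the range of the 3 WT arrays. In Cyp2g1 and Cyp2b19 replicates 2 and 3 lie above the WT range and replicate 1 within it, in Cyp2f2 all 3 lie above it, and the genes between Cyp2a5 and Cyp2f2 lie near 0.

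A further 2 members had an unadjusted p under 0.05. Cyp17a1, which makes the precursors of androgens in gonads and adrenal, had signals of 3.87, 4.26 and 3.97 in WT and 4.08, 5.09 and 4.90 in Sox9 KO. Here too Sox9 KO replicates 2 and 3 were higher and replicate 1 lay within the WT range, with a difference of 0.66 (SE 0.27, adjusted p = 0.509 in limma). Cyp2r1, a vitamin D hydroxylase of the liver, had signals of 3.98, 4.14 and 3.95 in WT and 4.29, 4.67 and 4.57 in Sox9 KO. Its groups did not overlap, and the difference was 0.49 (SE 0.15, adjusted p = 0.392 in limma). On no array was either member above more than 61.0% of the negative controls. Just outside this limit were Cyp2d22, described next, and Cyp7a1, the rate-limiting enzyme of bile acid synthesis. Cyp7a1 had a difference of -0.28 (SE 0.13, unadjusted p = 0.0632, adjusted p = 0.565 in limma).

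Cyp2d22, on chromosome 15, had the largest difference in the lower direction. It is a mouse relative of the human drug-metabolizing enzyme CYP2D6. Its log2 signals were 9.25, 8.50 and 8.54 in WT and 6.06, 7.33 and 8.78 in Sox9 KO. The WT arrays were all above background, and the Sox9 KO arrays were spread from above 74.5% to above 98.1% of the negative controls, with replicate 3 inside the WT range. The means were 8.76 ± 0.42 and 7.39 ± 1.36 (SD, n = 3 each), a difference of -1.37 (SE 0.60, 95% interval -2.77 to 0.03, unadjusted p = 0.0537, adjusted p = 0.548 in limma). Leaving out Sox9 KO replicate 1 brought the difference to -0.71, and over all single arrays left out it was -2.07 to -0.71. The 2 arrays with the highest Cyp2d22 signal, WT replicate 1 and Sox9 KO replicate 3, were also those with the highest Dcn and Fabp4 signals. Not every fibroblast and adipocyte marker went this way. Col1a2 was highest on WT replicate 2, at 5.74, and Plin4 lowest on Sox9 KO replicate 3, at 5.73. Against the WT mean, the median over the fibroblast markers was 0.19 and 0.71 on these 2 arrays and -0.1 to 0.14 on the others. Over the adipocyte markers it was 0.09 and 0.12, against -0.28 to 0.02. The part of these markers in the Cyp2d22 values was not tested.

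The other members above background differed by less than their spread. Cyp2d13, of the same subfamily, had signals of 8.62, 8.83 and 8.44 in WT and 8.37, 8.42 and 9.05 in Sox9 KO. These overlapped, with a difference of -0.02 (SE 0.21) whose sign changed when WT replicate 2, Sox9 KO replicate 1 or Sox9 KO replicate 2 was left out. Cyp39a1, an oxysterol hydroxylase of bile acid synthesis, had signals of 9.10, 8.13 and 8.53 in WT and 9.07, 9.06 and 8.68 in Sox9 KO. WT replicate 2 was below background and the other 5 arrays above it, and the difference was 0.35 (SE 0.25, adjusted p = 0.719 in limma). It was 0.12 without WT replicate 2 and 0.61 without WT replicate 1. Cyp2d9 had signals of 7.65, 7.83 and 7.71 in WT and 7.65, 7.81 and 8.16 in Sox9 KO, above background on Sox9 KO replicate 3 alone.

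Single arrays set the values of 2 more members. Cyp24a1, which inactivates vitamin D and is a classical target of the vitamin D receptor, had signals of 7.51, 9.28 and 7.70 in WT and 7.48, 8.05 and 7.66 in Sox9 KO. Only WT replicate 2 was above background, and the difference was -0.43 (SE 0.44, adjusted p = 0.808 in limma). The receptor Vdr was above background on all 6 arrays and differed by 0.03 (SE 0.19). Cyp27b1, which makes the active form of vitamin D, differed by -0.21 (SE 0.18). Cyp3a57 had signals of 5.16, 4.42 and 7.57 in WT and 4.44, 5.28 and 4.62 in Sox9 KO, so that WT replicate 3 stood far above the other arrays. On the same array the ER-positive luminal marker Foxa1 had a signal of 8.35, against 4.99 to 5.68 on the others, and the summed ER-positive markers were highest there too. Their part in the Cyp3a57 value was not tested.

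By class, the 47 CYP2 members held both directions, with 22 higher and 24 lower, a median difference of -0.00 and a range of -1.37 to 1.39. The 14 Cyp2c members, mostly liver enzymes and epoxygenases, lay between -0.23 and 0.26, with 3 higher and 10 lower. The 7 Cyp2j members, which include epoxygenases of arachidonic acid, lay between -0.06 and 0.26. Cyp2e1, the ethanol-oxidizing P450, differed by 0.01 (SE 0.14). All 3 CYP1 members were higher, with a median of 0.23. The 7 CYP3 members, the major drug-oxidizing class of the liver, had a median of -0.11, with 2 higher and 5 lower.

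The 16 CYP4 members, fatty acid hydroxylases, had 7 higher and 9 lower and lay between -0.21 and 0.31, with none above background on a full set of arrays. Cyp4b1, known from the lung, differed by 0.31 (SE 0.23, adjusted p = 0.727 in limma). The 5 members of steroid hormone synthesis had a median of 0.11. Among them Cyp11a1, which cleaves the cholesterol side chain, differed by -0.03 (SE 0.17), and Cyp11b1, Cyp11b2 and Cyp21a1, of corticosteroid synthesis, by 0.11, 0.15 and -0.04. The 7 members of the sterol and bile acid class had 3 higher and 4 lower, and Cyp27b1 of vitamin D synthesis was counted in this class, among the lower. The retinoic acid hydroxylases Cyp26a1 and Cyp26c1 differed by -0.24 (SE 0.18) and 0.09 (SE 0.18), with signals above 33.3% to 56.9% of the negative controls.

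The genes that serve P450 enzymes were largely above background in these cells, and none passed the adjusted threshold. Of 6 measured genes, counting electron donors together with the partners Pgrmc1 and Pgrmc2, 5 were above background on all arrays of a genotype. Of these 6, 2 were higher and 4 lower, with a median of -0.05. An unadjusted p under 0.05 in limma was found for 0 of them, beside 4.28% of all tested probe sets higher and 4.99% lower. Cyb5a, cytochrome b5 of the endoplasmic reticulum, differed by -0.42 (SE 0.47), and Cyb5r3, its reductase, by 0.10 (SE 0.19). Fdx1, the mitochondrial ferredoxin, differed by -0.15 (SE 0.22). The haem-binding P450 partners Pgrmc1 and Pgrmc2 differed by -0.04 (SE 0.14) and 0.34 (SE 0.15).

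Haem supply held 3 genes with an unadjusted p under 0.05 among 9 measured, 2 higher and 1 lower, beside 4.28% and 4.99% of all tested probe sets. Hmox1, which breaks down haem, had log2 signals of 10.94, 11.67 and 11.03 in WT and 9.32, 9.29 and 10.47 in Sox9 KO. All 3 Sox9 KO arrays were lower than all WT arrays, and the difference was -1.52 (SE 0.35, unadjusted p = 0.0025, adjusted p = 0.269 in limma). Alad, the second enzyme of haem synthesis, had signals of 8.31, 8.47 and 8.69 in WT and 9.46, 8.93 and 9.07 in Sox9 KO. These did not overlap, and the difference was 0.66 (SE 0.18, adjusted p = 0.348 in limma). Cpox, a later enzyme of the pathway, had signals of 7.53, 7.52 and 7.55 in WT and 7.91, 7.87 and 7.91 in Sox9 KO, a difference of 0.36 (SE 0.12, adjusted p = 0.416 in limma). Alas1, the rate-limiting first enzyme, differed by -0.21 (SE 0.14), Ppox by 0.25 (SE 0.21) and the constitutive haem oxygenase Hmox2 by 0.20 (SE 0.16). Over the 9 measured genes 7 were higher and 2 lower, with a median of 0.22.

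**Figure D4:**
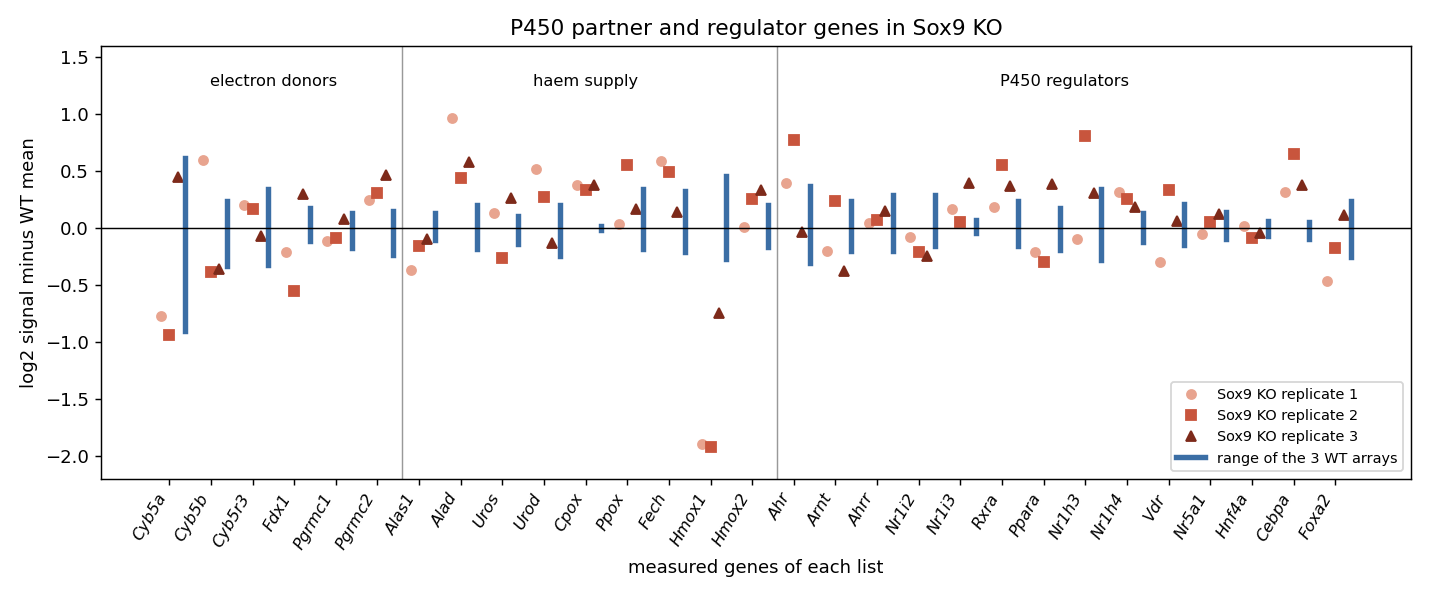
Log2 signal of each Sox9 KO array minus the WT mean (y axis, points shaded by replicate) for the electron donor, haem supply and regulator genes (x axis). Blue bars give the range of the 3 WT arrays, and the partners Pgrmc1 and Pgrmc2 stand with the electron donors. Hmox1 lies below the WT range on all 3 Sox9 KO arrays and Alad and Cpox above it.

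Of 14 measured regulators of P450 genes 9 were higher and 5 lower, and Ahr, Arnt and Vdr alone were above background on all arrays of a genotype. Cebpa, a transcription factor of P450 genes in liver and lung, had signals of 6.80, 6.65 and 6.78 in WT and 7.06, 7.39 and 7.12 in Sox9 KO. The groups did not overlap, with a difference of 0.45 (SE 0.14, adjusted p = 0.408 in limma), under the background limit on all 6 arrays. The xenobiotic receptors Nr1i2 and Nr1i3 differed by -0.18 (SE 0.16) and 0.20 (SE 0.14). The P450 genes outside the symbol pattern, Cyp51 of cholesterol synthesis, Ptgis and Tbxas1, differed by -0.03, -0.03 and -0.05 and were below the background limit.

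Other drug-metabolizing enzymes had 10 of 15 measured genes higher and 5 lower, with a median of 0.03. Fmo1, a flavin-containing monooxygenase, had signals of 7.94, 7.52 and 7.60 in WT and 7.80, 8.44 and 8.40 in Sox9 KO. Sox9 KO replicates 2 and 3 were above background and higher than every WT array, and the difference was 0.53 (SE 0.21, adjusted p = 0.503 in limma). Fmo2, its counterpart in lung, differed by 0.44 (SE 0.29). Ephx1, the microsomal hydrolase that opens the epoxides P450 enzymes make, was above background on all 6 arrays and differed by -0.20 (SE 0.21).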

How the data were processed

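The authors read Affymetrix Clariom S Pico mouse arrays with Expression Console and Transcriptome Analysis Console 4.0.1 and deposited log2 signals per probe set. The range of the values gave the log2 scale. Normalization, summary method and build: not given in the sources used here. Of 28846 probe sets, 6640 controls were left out and 22206 tested. Symbols came from the platform annotation (19572 named, 2634 unnamed here), and all 89 member gene IDs were in the RefSeq gene table. The comparison used limma 3.58.1 under R 4.3.3 (lmFit, eBayes, two-sided, no covariates, Benjamini-Hochberg over all tested probe sets, threshold 0.05), and the fit was tested on simulated data. Members and lists were chosen with earlier results of these data known. Named genes were Cyp2f2, members above the negative controls on all 3 arrays of a genotype, members over 2-fold or with an unadjusted p under 0.05, those nearest these limits, and partner genes that were above the controls or had such a p, and genes named beyond these were chosen after their values were seen. The other P450 genes named with values stand as examples of their class. Protein sequences were not used here. Alternatives were quantile normalization, median centring, other variance models, array weights, the methods' t-test, filters, the replicate number as a block and each array left out. Precision is limited by the number of arrays, and p-values measure the spread between these animals.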

Additional observations from a re-analysis of the deposited data

How the results depend on the processing

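The Cyp2f2 difference was 1.37 after quantile normalization, 1.34 after median centring and 1.28 to 1.46 without single arrays. Its WT signals all lay under its Sox9 KO signals, so leaving out an array could not change its direction. The family was also chosen on this difference, so these values describe its size only. Without Sox9 KO replicate 1, Cyp2g1 passed the adjusted threshold with a difference of 2.07, among 11 tested probe sets called in that comparison. Cyp2f2 is left out of this statement, since the family was chosen on it. With any other single array left out no member passed. Why Sox9 KO replicate 1 had this effect was not tested. The counts that follow are over all 89 members, so those by p-value include Cyp2f2. The methods' t-test called 2 members past 2-fold at its threshold and 0 after Benjamini-Hochberg adjustment. Members not overlapping were 14 to 18 without single arrays, against 9, since fewer arrays are compared. Members above background were 0 at the 99th and 8 at the 90th percentile of the negative controls, against 4. For these counts the share over all tested probe sets at the same setting is not given, so nothing is read from them. The family median was 0.167 over only the members above the negative controls by their mean, against -0.007. Few members enter that set, since only 7 were above background on at least 1 array, and nothing is read from its median. The Cyp2d13 difference was 0 after quantile normalization and -0.24 to 0.11 without single arrays, against -0.02.

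Replicate numbers were shared by the labels of both genotypes, but deviations of same-numbered arrays correlated at 0.12, -0.03 and 0.03, so the numbers were not taken as pairing. With the replicate block the Cyp2f2 difference was 1.38, and 3 members, Cyp2f2 among them, were past 2-fold. The block left 0 members past the adjusted threshold and changed no call.

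Most members were at background on these arrays, where low signals are compressed, so a small difference there does not show that a gene did not change.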
